A study of Homo sapiens with 4 samples.

Results

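RNA sequencing was used to follow the genes of polyamine synthesis and breakdown in Kasumi-1, a human cell line from acute myeloid leukemia that carries the RUNX1-RUNX1T1 fusion. The set held 10 genes chosen by name, namely ODC1, AMD1, SRM, SMS, OAZ1, OAZ2, AZIN1, SAT1, SMOX and PAOX. Of these, 9 had a row among the 18567 gene IDs of the deposited table, and PAOX was not analysed here. A control group (NC, 2 samples) was compared with a group in which the histone chaperone ANP32B was knocked down by short hairpin RNA (sh-ANP32B, 2 samples), and all 4 were Kasumi-1 cultures. The labels give the NC samples as untreated and free of shRNA, while the methods of the study speak of a control hairpin and of puromycin selection of infected cells, so any effect of infection and selection cannot be told apart from that of the knockdown if NC carried no hairpin. Which ANP32B hairpin each sh-ANP32B sample received is not given in the sources used here, and a general remark of the study on independent repeats is not tied to these replicates, so whether they were separate cultures is not settled and p-values measure the spread between these samples, which may be technical.

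Polyamines (putrescine, spermidine and spermine) are small positively charged molecules that bind nucleic acids and that dividing cells need in large amounts. ODC1 makes putrescine from ornithine, AMD1 supplies the aminopropyl donor from S-adenosylmethionine, and SRM and SMS use that donor to build spermidine and spermine. In the other direction SAT1 acetylates spermidine and spermine for export or oxidation, PAOX oxidizes the acetylated forms and SMOX oxidizes spermine directly. Antizymes (OAZ1, OAZ2) bind ODC1 and deliver it to the proteasome, and the antizyme inhibitor AZIN1, an ODC1 relative without enzyme activity, holds them off.

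The knockdown was visible at its target. In TPM, a level scaled to transcript length and to the total of the sample, ANP32B stood at 384 in NC replicate 1, 392 in NC replicate 2, 51.8 in sh-ANP32B replicate 1 and 41.2 in sh-ANP32B replicate 2. Transcripts encoded by mitochondria took 12.9% to 13.1% of the NC values and 8.43% to 11.4% of the sh-ANP32B values, and depth, which TPM does not retain, was unknown. The sh-ANP32B replicates differed from each other along GC content (Spearman rho 0.577 across 15427 genes, which share the same 2 libraries), with a rho of -0.206 between the NC replicates. Of 7 markers of the line, CD33, CD38, PTPRC, RUNX1T1 and KIT were measured, RUNX1T1 at 15.6 to 31.2 TPM and KIT at only 1.55 to 3.41 TPM, and CD34 and MPO were not analysed here. The erythroid, epithelial and stromal markers listed for other cell types were not analysed here.

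Of the 9 polyamine genes measured, 1 changed past an adjusted p of 0.05, and it was SAT1, the acetyltransferase that opens polyamine breakdown. Of the 16817 genes tested 3.32% passed that threshold, made up of 2.14% higher and 1.18% lower in sh-ANP32B. SAT1 more than doubled in sh-ANP32B. In bulk samples fewer cells of a type and less RNA per cell cannot be told apart. The 4 synthesis genes lay lower in both sh-ANP32B samples than in both NC samples but missed the adjusted threshold, and the antizymes, AZIN1 and SMOX overlapped between the groups. Non-overlap was therefore seen in 5 of 9 genes, against 54.6% of all genes tested (33.2% higher and 21.4% lower). Under the criterion of the study (a log2 fold change beyond -0.5 or 0.5 at an unadjusted p below 0.05) SAT1 again was the only one of the 9 that passed, where 18.6% of all genes did (12.1% higher and 6.55% lower). The median log2 fold change was -0.11 over the 9 genes and 0.083 over all genes tested.

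**Figure D1:**
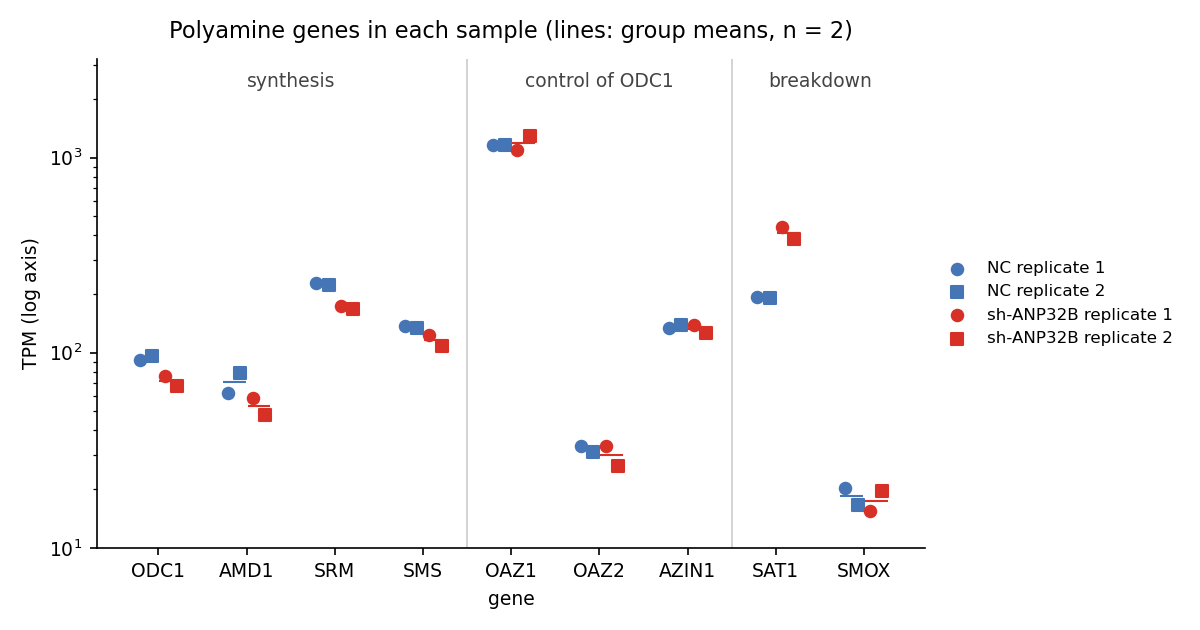
TPM of the 9 polyamine genes (log axis) in each of the 4 samples, with blue for NC, red for sh-ANP32B, circles for replicate 1, squares for replicate 2 and short lines for group means (n = 2). SAT1 stands at 385 to 441 TPM in sh-ANP32B and 190.2 to 193 TPM in NC, the 4 synthesis genes sit lower in sh-ANP32B, and the remaining 4 genes overlap.

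SAT1 (ENSG00000130066) sits on the plus strand of chromosome X (hg38, from 23783173 to 23786210). It reached 193 TPM in NC replicate 1, 190.2 TPM in NC replicate 2, 441 TPM in sh-ANP32B replicate 1 and 385 TPM in sh-ANP32B replicate 2. Both knockdown samples thus stood far above both controls, and the gap exceeded the spread within either group. Averaged by group it stood at 191 ± 1.66 TPM for NC and 413 ± 39.6 TPM for sh-ANP32B (SD, n = 2 each), a ratio of 2.16. The log2 fold change was 1.10 (SE 0.128, 95% interval 0.80 to 1.41, limma adjusted p 0.0261). By p-value SAT1 ranked 45 of the 16817 genes, and by fold change it ranked 419 from the highest. Leaving out each sample in turn kept it past the threshold, with limma adjusted p between 0.000216 and 0.0388, whereas limma without its abundance trend gave 0.114 at the same fold change.

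SMOX (ENSG00000088826, chromosome 20 from 4120980 to 4187747), the spermine oxidase, was the least abundant of the 9 genes. It had 20.4 and 16.6 TPM in the NC samples against 15.5 and 19.4 TPM after knockdown, so that the groups overlapped. Its log2 fold change was -0.078 (95% interval -0.55 to 0.40, limma adjusted p 0.858), an interval that leaves room for a change of either sign. SMOX turned positive without NC replicate 1 (0.063) or without sh-ANP32B replicate 1 (0.077). Of the 2 measured genes of breakdown, SAT1 alone therefore passed the test.

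Among the synthesis genes, ODC1 (ENSG00000115758, chromosome 2 from 10439968 to 10448327) catalyses the first and most tightly regulated step. It had 91.9 and 96.4 TPM in the NC samples against 75.7 and 67.2 TPM after knockdown. Both knockdown samples lay under both controls, and their mean was 75.9% of the NC mean. Group averages were 94.1 ± 3.18 and 71.5 ± 5.99 TPM (SD, n = 2 each), and the log2 fold change came to -0.39 (SE 0.136, 95% interval -0.72 to -0.070, limma adjusted p 0.148). SRM (ENSG00000116649, chromosome 1 from 11054584 to 11060020), the spermidine synthase, was the most abundant gene of synthesis. Its values were 229 and 223 TPM in the NC samples against 173 and 167 TPM after knockdown, with a close pair in each group. Averages of 226 ± 3.96 and 170.2 ± 4.21 TPM (SD, n = 2 each) gave a log2 fold change of -0.41 (SE 0.119, 95% interval -0.69 to -0.12, limma adjusted p 0.107).

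AMD1 (ENSG00000123505, chromosome 6 from 110874770 to 110898879) decarboxylates S-adenosylmethionine. Its values were 62.2 and 79.0 TPM in the NC samples against 58.9 and 48.2 TPM after knockdown, the 2 NC samples being wider apart than the nearest NC and sh-ANP32B samples. The log2 fold change was -0.39 (SE 0.179, 95% interval -0.82 to 0.038, limma adjusted p 0.247). SMS (ENSG00000102172, chromosome X from 21940709 to 21994837), the spermine synthase, had 137 and 133 TPM in the NC samples against 123 and 109 TPM after knockdown. It showed the smallest difference of the 4, a log2 fold change of -0.23 (SE 0.131, 95% interval -0.54 to 0.088, limma adjusted p 0.350).

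All 4 synthesis genes were thus below 0, where 42.1% of all genes tested were, and their groups did not overlap, as for 21.4% of all genes in that direction. ODC1 and SRM had an unadjusted limma p under 0.05 (0.0242 and 0.0120), which 8.72% of all genes reached downward and 15% upward. Without the abundance trend these p-values were 0.0659 and 0.0506. The direction of the 4 genes held in all 12 alternatives. It was bound to hold on leaving out a sample, as the groups did not overlap, and wherever the sample values were not rescaled. Only settings that rescale the samples or correct for GC content could have reversed it. Whether the 4 genes passed the adjusted threshold depended on the sample left out. Without sh-ANP32B replicate 1 the limma adjusted p was 0.00949 for ODC1, 0.00673 for SRM, 0.0377 for SMS and 0.0295 for AMD1, so that 5 of the 9 genes passed, and without sh-ANP32B replicate 2 it was 0.0142 for SRM, so that 2 passed. Without NC replicate 1 or NC replicate 2 it was 0.698 or 0.767 for ODC1, 0.728 or 0.688 for SRM, 0.903 or 0.869 for SMS and 0.532 or 0.899 for AMD1, so that only SAT1 passed. In such fits the lone sample is assumed to vary like the pair of the other group, and in place of 559 of all genes tested, 4079 and 3487 passed without sh-ANP32B replicates 1 and 2, and 324 and 273 without NC replicates 1 and 2. Correction for GC content brought ODC1 to a limma adjusted p of 0.0389.

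**Figure D2:**
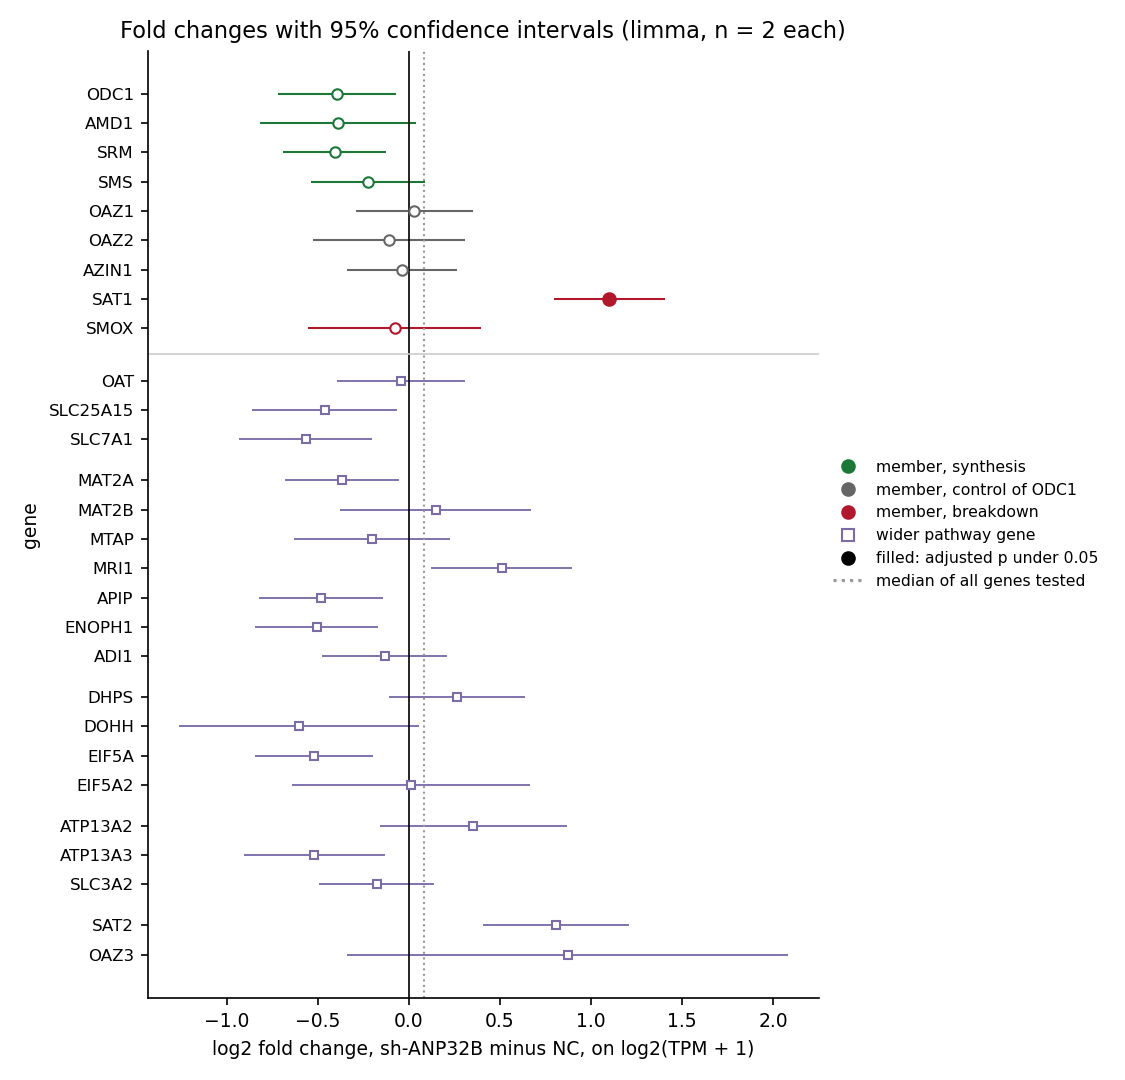
Log2 fold changes (sh-ANP32B minus NC, on log2(TPM + 1)) with 95% confidence intervals from limma for the 9 polyamine genes (circles, above the line) and 19 further genes of the pathway (squares, in the order ornithine and arginine supply, methionine cycle, hypusine formation, transport, family copies). SAT1, at 1.10, is the only filled symbol (adjusted p under 0.05), and the dotted line marks the median of all genes, 0.083.

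Promoter sequence is shown for SAT1, the gene that changed, and for SRM and ODC1, the synthesis genes with the lowest p-values. The windows are the bases within 250 before a RefSeq start (GRCh38.p14) that fall in no annotated exon, 5′ to 3′ on the strand of the gene. Capitals mark CCAAT or its reverse complement in SAT1. In SRM and ODC1 they mark the E-box CACGTG, the letters bound by MYC with MAX. The window of the upstream ODC1 start (chr2:10448328-10448577) held no E-box and is not shown. The ODC1 window that is shown, with its E-box, lies inside the annotated span of the gene (10439968 to 10448327), between its exons.
SAT1, chrX:23782957-23783172, plus strand: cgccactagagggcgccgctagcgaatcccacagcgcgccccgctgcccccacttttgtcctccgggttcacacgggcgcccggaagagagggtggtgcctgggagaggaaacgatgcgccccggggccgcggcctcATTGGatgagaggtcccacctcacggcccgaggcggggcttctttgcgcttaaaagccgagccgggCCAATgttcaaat
SRM, chr1:11060021-11060268, minus strand: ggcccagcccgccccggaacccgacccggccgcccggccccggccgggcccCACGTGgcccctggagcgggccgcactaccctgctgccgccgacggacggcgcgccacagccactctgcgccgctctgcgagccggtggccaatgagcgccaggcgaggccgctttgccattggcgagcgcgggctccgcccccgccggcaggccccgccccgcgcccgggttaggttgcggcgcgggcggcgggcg
ODC1 downstream start, chr2:10448015-10448120, minus strand: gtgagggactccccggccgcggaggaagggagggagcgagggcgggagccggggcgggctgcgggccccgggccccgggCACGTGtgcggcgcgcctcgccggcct

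Counting both strands of the 250 bases before each start, the E-box was held by 2 of the 10 windows that RefSeq gives for 7 of the polyamine genes (SRM and the downstream start of ODC1) and by 6.34% of all 35116 promoter windows. CCAAT was held by 5 of the 10 windows and by 32.01% of all, and GGGCGG, the GC box, by 9 of the 10 and by 42.6%. SAT1 had 2 CCAAT matches and neither of the other motifs. SRM also had 2 CCAAT matches, left in lower case above, and windows of AMD1, OAZ1 and SMS held CCAAT as well. No matches overlapped in the windows shown. MYC itself had 131 and 144 TPM in the NC samples against 56.7 and 63.2 TPM after knockdown (log2 fold change -1.18, limma adjusted p 0.0261). These matches are letters in a window, and binding was not measured here.

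None of the 3 genes that control the ODC1 protein passed the test, and each interval spans a change of either sign. OAZ1 (ENSG00000104904, chromosome 19 from 2269509 to 2273490), the major antizyme, was the most abundant of the 9 transcripts. Its values were 1167 and 1161 TPM in the NC samples against 1095 and 1291 TPM after knockdown, so that the knockdown samples lay on either side of the controls. The log2 fold change was 0.031 (95% interval -0.29 to 0.35, limma adjusted p 0.921), and it was -0.063 after median-of-ratios scaling, -0.020 without mitochondrial genes and -0.10 after GC correction. OAZ2 (ENSG00000180304, chromosome 15 from 64687573 to 64703281), a less abundant antizyme, had 33.1 and 30.8 TPM in the NC samples against 33.3 and 26.2 TPM after knockdown, and its log2 fold change was -0.11 (95% interval -0.53 to 0.31, limma adjusted p 0.757) and became 0.056 without sh-ANP32B replicate 2. AZIN1 (ENSG00000155096, chromosome 8) had 135 and 138 TPM in the NC samples against 139 and 127 TPM after knockdown, and its log2 fold change was -0.038 (95% interval -0.34 to 0.26, limma adjusted p 0.896). It was 0.030 after GC correction and 0.027 without sh-ANP32B replicate 2.

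Ordered by mean TPM, which is per transcript length, the NC samples ran OAZ1, SRM, SAT1, AZIN1, SMS, ODC1, AMD1, OAZ2 and SMOX. Only AZIN1 and SMS, at 136 ± 2.53 and 135 ± 2.56 TPM (SD, n = 2 each), overlapped among neighbours in that order. In sh-ANP32B the order was the same but for SAT1 and SRM, which changed places, and no neighbours overlapped. A ratio of 2 genes within a sample does not depend on the scaling of that sample. The TPM of SAT1 was 2.10 and 1.97 times that of ODC1 in NC and 5.82 and 5.72 times in sh-ANP32B. The TPM of OAZ1 was 12.7 and 12.04 times that of ODC1 in NC and 14.5 and 19.2 times in sh-ANP32B, the last sample standing apart.

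The difference between the sh-ANP32B replicates had a pattern among the polyamine genes. Replicate 2 was lower than replicate 1 by 0.13 to 0.33 on the log2(TPM + 1) scale in the 6 genes with a transcript GC content of 38.1% to 48.5% (AZIN1, AMD1, SAT1, SMS, ODC1 and OAZ2). It was higher by 0.24 in OAZ1 and 0.31 in SMOX, whose GC content was 61.2% and 61.0%, and in SRM, at 63.7%, the difference was -0.050. After correction for GC content the log2 fold changes of SAT1, ODC1 and SRM were 1.17, -0.35 and -0.57. 

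**Figure D3:**
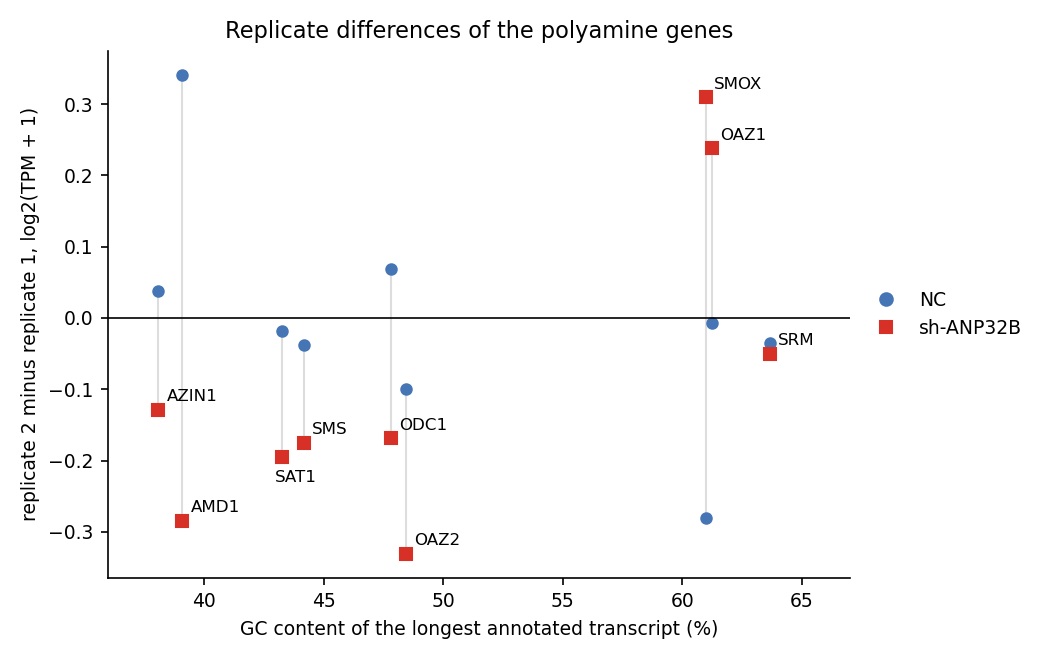
Difference between replicates 2 and 1 on log2(TPM + 1) against the GC content (%) of the longest annotated transcript, for the 9 polyamine genes, with circles for NC and squares for sh-ANP32B and a grey line joining the pair of a gene. In sh-ANP32B the 6 genes under 49% GC lie below 0 and OAZ1 and SMOX lie above it.

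Of 25 further genes of the pathway, 19 were measured and 0 passed an adjusted p of 0.05 in limma, while 9 had an unadjusted p under 0.05 (7 lower and 2 higher), against 23.8% of all genes tested. Their median log2 fold change was -0.18. The count at the adjusted threshold stayed at 0 without either NC replicate and was 11 without sh-ANP32B replicate 1 and 9 without sh-ANP32B replicate 2, in fits that called 4079 and 3487 of all 16817 genes. After GC correction it was 8, where 2764 of 15427 genes were called. SAT2, a family copy of SAT1 that acts mainly on other substrates, had 48.8 and 39.9 TPM in the NC samples against 85.2 and 71.6 TPM after knockdown. Both knockdown samples stood above both controls (log2 fold change 0.81, SE 0.167, limma adjusted p 0.0554). For SAT2 the limma adjusted p was 0.00818 without sh-ANP32B replicate 1, 0.00316 without sh-ANP32B replicate 2 and 0.0359 after GC correction, but 0.115 without NC replicate 1 and 0.410 without NC replicate 2. OAZ3, the testis antizyme, had 1.01 and 0.170 TPM in the NC samples against 3.25 and 0.849 TPM after knockdown, overlapping at low level (log2 fold change 0.87, limma adjusted p 0.349), and its log2 fold change ran from 0.27 without sh-ANP32B replicate 1 to 1.47 without sh-ANP32B replicate 2.

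Of 7 genes listed for the supply of ornithine and arginine, 3 were measured. SLC7A1, the main importer of arginine in many cells, had 39.2 and 39.6 TPM in the NC samples against 24.6 and 28.0 TPM after knockdown (log2 fold change -0.57, SE 0.153, limma adjusted p 0.0918). SLC25A15, which carries ornithine into mitochondria, had 21.6 and 22.0 TPM in the NC samples against 16.4 and 14.8 TPM after knockdown (log2 fold change -0.46, limma adjusted p 0.163). Both transporters were lower in each knockdown sample. OAT, the ornithine aminotransferase, overlapped between the groups with a log2 fold change of -0.042.

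The methionine side had 7 genes, all measured, with a median log2 fold change of -0.20, 5 below 0 and 2 above. This branch makes S-adenosylmethionine for AMD1 and returns the methylthioadenosine left by SRM and SMS to methionine. ENOPH1, a salvage enzyme, had 50.0 and 49.7 TPM in the NC samples against 36.05 and 33.7 TPM after knockdown (log2 fold change -0.50, SE 0.141, limma adjusted p 0.0995). MRI1, an isomerase of the same salvage route, had 56.1 and 56.8 TPM in the NC samples against 71.2 and 91.6 TPM after knockdown (log2 fold change 0.51, limma adjusted p 0.127). APIP, the dehydratase that acts between them, had 48.8 and 45.4 TPM in the NC samples against 33.3 and 33.6 TPM after knockdown (log2 fold change -0.48, limma adjusted p 0.110). None of these 3 salvage genes passed the threshold.

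Spermidine also donates the group that DHPS and DOHH turn into hypusine on the translation factor EIF5A. EIF5A had 336 and 317 TPM in the NC samples against 209 and 247 TPM after knockdown, with no overlap (log2 fold change -0.52, SE 0.136, limma adjusted p 0.0845). DOHH, the hydroxylase, had 28.6 and 21.2 TPM in the NC samples against 12.2 and 20.6 TPM after knockdown, with no overlap but a wide spread in each group (log2 fold change -0.60, limma adjusted p 0.246). It ran from -0.25 without sh-ANP32B replicate 1 to -0.96 without sh-ANP32B replicate 2, where the limma adjusted p was 0.0108. DHPS and EIF5A2 had log2 fold changes of 0.26 and 0.011. Of the 3 transport genes measured, ATP13A3, a P-type ATPase linked to polyamine uptake, had 77.1 and 77.9 TPM in the NC samples against 60.9 and 47.5 TPM after knockdown (log2 fold change -0.52, limma adjusted p 0.122). ATP13A2, the lysosomal polyamine exporter, had 25.8 and 28.7 TPM in the NC samples against 28.8 and 42.7 TPM after knockdown (log2 fold change 0.35, limma adjusted p 0.370). Its log2 fold change was 0.63 without sh-ANP32B replicate 1 (limma adjusted p 0.0105) and 0.076 without sh-ANP32B replicate 2. SLC3A2, part of an amino acid transporter, had a log2 fold change of -0.18.

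Markers of proliferation and of maturing myeloid cells also differed between the groups. All 10 proliferation markers were lower in sh-ANP32B, while 42.1% of all genes tested had a log2 fold change below 0. Of the 10, 4 passed an adjusted p of 0.05 in limma, against 1.18% of all genes tested in that direction. The summed level of the 10 was 2237 to 2339 TPM in NC and 1293 to 1500 TPM in sh-ANP32B. Of 10 markers of maturing myeloid cells 8 were measured, all 8 with a positive log2 fold change, as had 9741 of the 16817 genes tested. Past the threshold were 3 of the 8, against 2.14% of all genes tested in that direction. The summed level of the 8 was 1565 to 1597 TPM in NC and 2883 to 3192 TPM in sh-ANP32B. LYZ and ITGB2 made up most of that sum, and CD14 and FCN1 were not analysed here. Of the 5 measured markers of the line, 4 also had a positive log2 fold change, and 0 passed the adjusted threshold. It was 0.77 for RUNX1T1, 0.59 for PTPRC, 0.49 for KIT and 0.14 for CD33, against -0.72 for CD38. Groups did not overlap in any of the 5, as in 54.6% of all genes tested. In sh-ANP32B replicate 2, SAT1 and the proliferation sum were lower than in replicate 1, and the maturing sum was higher. The part of these markers in the differences of SAT1 and of the synthesis genes was not tested.

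Over the 4 samples, the centred log2(TPM + 1) values nearest to those of ODC1 by Euclidean distance were IPO8, SLFN11 and ATG5 (distances of 0.017 to 0.018 among 9734 candidate genes). Those nearest to SAT1 were RCBTB2, CD52 and TGFBR2 (0.073 to 0.093). All 3 of the latter had a limma adjusted p under 0.05, as 3.32% of all genes tested did, with log2 fold changes of 1.07, 1.05 and 1.04. They were picked for values like those of SAT1 in these same samples, so this is no separate result. Without NC replicate 1 or NC replicate 2 the limma adjusted p of CD52 was 0.102 or 0.143 and that of TGFBR2 was 0.0788 or 0.0513, while RCBTB2 stayed past the threshold. Likeness over 4 samples is a description of these values only.

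**Figure D4:**
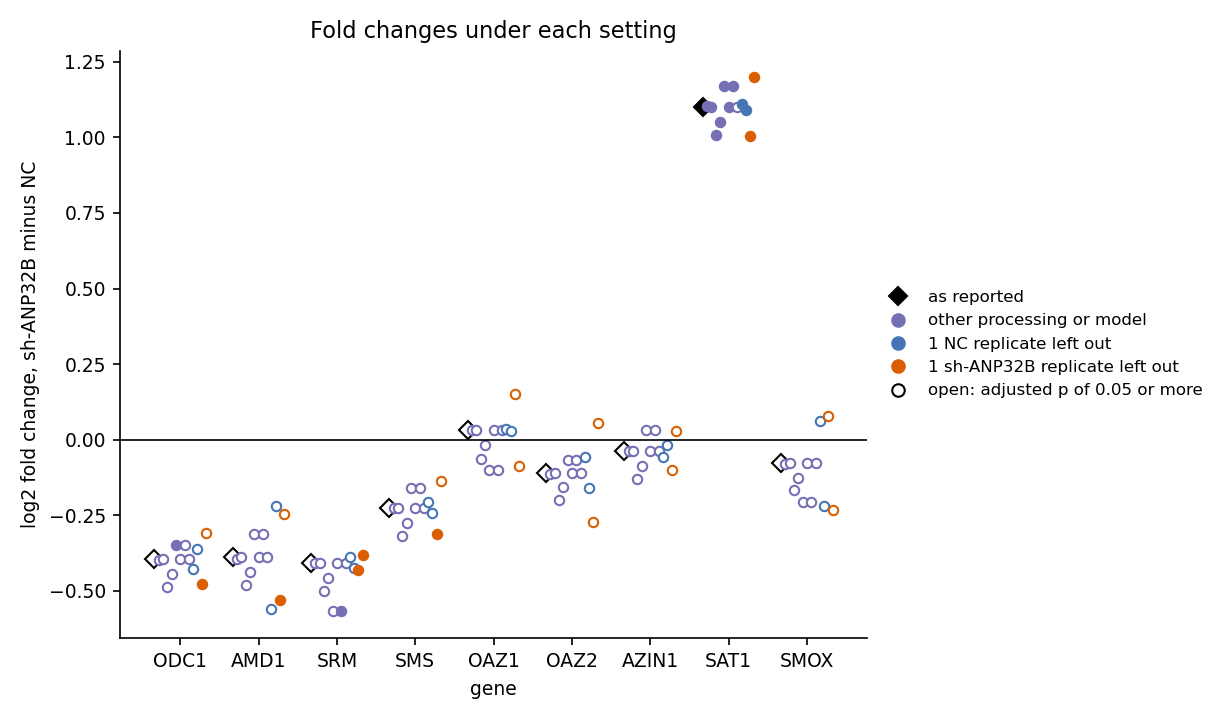
Log2 fold changes (sh-ANP32B minus NC) of the 9 polyamine genes as reported (black diamonds) and in 12 alternatives (circles, filled where the adjusted p was under 0.05), with orange for fits that left out an sh-ANP32B replicate and blue for those that left out an NC replicate. SAT1 stays between 1.00 and 1.20 and the 4 synthesis genes stay below 0, while OAZ1, OAZ2, AZIN1 and SMOX cross 0. For SAT1 and the 4 synthesis genes, whose groups do not overlap, the orange and blue circles could not cross 0.

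Some values carry a limit from gene structure. GENCODE v44 lists 3 pseudogene copies named for SRM, 4 for AMD1, 1 for SMS, 1 for OAZ1, 3 for EIF5A, 5 for SLC25A15 and 1 for ENOPH1, with which reads may be shared. Exons of other annotated genes covered 3.63% of the exonic bases of SAT1, 6.87% of OAZ1, 7.22% of OAZ2 and 2.59% of AZIN1. Among the other named pathway genes the share was 31.1% for MRI1, 27.6% for OAZ3, 9.44% for ATP13A2, 8.98% for EIF5A, 5.92% for SLC25A15 and 2.26% for ATP13A3. Whether the counting used strand is not given in the sources used here, so these values are uncertain to that extent.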

How the data were processed

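The authors aligned the RNA-seq reads to hg38 with HISAT2 2.0.5, as the submitters' processing notes and the methods of the study give it, and deposited TPM values. The unit was read from the values, whose columns sum to 997812 to 998314. The program behind them, its annotation and any filter are not given in the sources used here, and TPM keeps no depth, so no counting interval was made. Every column was matched to a sample by name. Of 18567 gene IDs 16986 were found in GENCODE v44 (hg38), the source of symbols, positions and GC content.

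Genes reaching 1 TPM in 2 or more samples were compared on log2(TPM + 1), a scale that understates the change of low genes, in limma 3.58.1 under R 4.3.3 with its trend on abundance, two-sided, and with Benjamini-Hochberg adjustment over all 16817 genes. The authors ran DESeq2, a count method that TPM does not allow. Permuting 2 against 2 samples exactly cannot give a p below 0.333, so no such test was made. The limma step was also run on simulated data with no GC pattern and with changes larger than that of SAT1. That run therefore does not measure how reliable the calls given here are. Figures were drawn with Python 3.11.15 and matplotlib 3.10.9.

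The genes, the pathway and marker lists and the tests were chosen with earlier results of these data known. All 10 polyamine genes, ANP32B and MYC are named, with pathway genes past the threshold, the 2 with the largest change in each pathway group, and for ODC1 and SAT1 the 3 nearest profiles with a mean of at least 10 TPM. The other genes of the pathway given with a value, the markers and the genes named for overlap or pseudogenes lie outside this rule and were named after their values were seen. The alternatives were a pseudocount of 0.1, no filter, median-of-ratios scaling, leaving out mitochondrial genes, GC correction by loess in each sample, a replicate block with and without it, no abundance trend, and leaving out each sample.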

Additional observations from a re-analysis of the deposited data

How the results depend on the processing

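The count of the 9 polyamine genes past an adjusted p of 0.05 was 1 as reported. GC correction gave 2 (ODC1 joined SAT1), the replicate block together with GC correction gave 2 (SRM joined SAT1), limma without the abundance trend gave 0, and leaving out each sample gave 1 to 5. The count past the criterion of the study, also 1, became 2 with median-of-ratios scaling, with GC correction and with the replicate block plus GC correction (SRM joined SAT1 in each), and 1 to 2 on leaving out each sample. Of the 19 other pathway genes, 0 as reported, GC correction called 8, the replicate block 1 (SAT2, limma adjusted p 0.00893), the block plus GC correction 6, and leaving out each sample 0 to 11. Over all genes the count of 559 became 2764 under GC correction, 1473 under the replicate block, 2026 under the block plus GC correction, 0 without the trend (3701 at an unadjusted p under 0.05), and 273 to 4079 on leaving out each sample. Of the 559 calls 199 were lower and 360 higher, and median-of-ratios scaling, which moved the median of all genes from 0.083 to 0.00059, gave 294 lower and 236 higher. The cause of these shifts was not tested.

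The log2 fold change of OAZ1, 0.031 as reported, was -0.063 with median-of-ratios scaling, -0.020 without mitochondrial genes, -0.10 with GC correction whether or not the replicate block was added, and -0.088 to 0.15 on leaving out each sample. That of AZIN1, -0.038 as reported, was 0.030 with GC correction whether or not the block was added and -0.10 to 0.027 on leaving out each sample. OAZ2 and SMOX ranged from -0.27 to 0.056 and from -0.23 to 0.077 on leaving out each sample. SAT1 and the 4 synthesis genes kept their direction in all 12 alternatives. As their groups did not overlap, only median-of-ratios scaling, leaving out mitochondrial genes and GC correction, with or without the block, could have reversed it. No source says that equal replicate numbers were handled together, and the deviations of equally numbered samples had a Pearson r of -0.0925 across genes. Under the replicate block alone no polyamine gene changed its call at the adjusted threshold, while the unadjusted limma p was 0.0741 for ODC1 and 0.0531 for SRM.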
